A study of Homo sapiens with 6 samples.

Results

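The TRIM genes are the protein-coding genes whose symbol in GENCODE release 29 begins with TRIM followed by a number, and 78 of the 58174 genes in the deposited expression matrix met this rule. All 78 were held by the matrix, and 43 of them were expressed highly enough to be tested. The cells were SiHa, an established human line from a cervical squamous cell carcinoma. The OV-BRCA1 group (3 samples) received the plasmid GV230-BRCA1, and the NC group (3 samples) received the empty GV230 vector, so that both groups had been through lipid transfection and carried a plasmid. RNA was taken after 48 h, and untransfected cells were not analysed here. The question was which TRIM genes were expressed in these cells, and which of them moved with the interferon-stimulated genes when BRCA1 was overexpressed.

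Most TRIM proteins carry a RING domain, B-box zinc fingers and a coiled coil, followed in most subfamilies by a further domain that binds a target. The RING domain makes those that have it E3 ubiquitin ligases, which pass ubiquitin from an E2 conjugating enzyme to the protein they hold. Several of them are antiviral proteins whose genes are switched on by interferon, and some attach ubiquitin to RIG-I, a cytosolic sensor of viral RNA, or to the proteins that signal below it. Others act in transcription, in the cytoskeleton or in cell differentiation and are not known as interferon targets.

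The targeted gene followed its label. BRCA1 had FPKM values of 35.7, 40.8 and 34.9 in the OV-BRCA1 samples and 20.1, 14.9 and 21.7 in the NC samples, and was higher by 0.95 ± 0.14 on the log2 scale (SE; limma, Benjamini-Hochberg adjusted p = 0.00373). Plasmid and endogenous BRCA1 transcripts cannot be told apart in these values. FPKM counts the fragments of a transcript relative to how long it is and to how many fragments were mapped in all, and each value here is the sum over the transcripts of a gene. Every log2 fold change below is the OV-BRCA1 mean minus the NC mean of log2(FPKM + 1), which understates the change of low genes. A gene was called higher or lower at an adjusted p-value below 0.05, and a called gene was a DEG where its log2 fold change was also above 1 or below -1. The study's methods call the 3 samples of a group biological replicates, and no label says whether they were separate cultures, so that the p-values measure the spread between these samples. In these bulk samples, more cells expressing a gene and more RNA per cell cannot be told apart. The 7 squamous and epithelial markers summed to an FPKM of 1592 to 1740 in the OV-BRCA1 samples and 1933 to 1976 in the NC samples. Of these, KRT17 was called lower (-0.48), EPCAM (1.12), KRT18 (0.39) and KRT8 (0.20) were called higher, and KRT5, KRT14 and TP63 were below 0.7 in every sample. The 3 fibroblast markers summed to 3.16 to 3.68 in the OV-BRCA1 and 6.06 to 6.68 in the NC samples. Of these, COL1A1 was called lower (-0.79, means of 3.28 and 6.39), and COL3A1 (means of 0.107 and 0.0564) and DCN (0 and 0.00515) were not tested. Of the 2 endothelial markers, PECAM1 was not called (0.23, means of 1.02 and 0.703) and VWF was listed at 0. The 4 blood cell markers summed to at most 0.24 in any sample. The part of these differences in the TRIM values was not tested. Mitochondrial transcripts took 14.8% to 17.2% of the FPKM total in the OV-BRCA1 samples and 21.0% to 23.2% in the NC samples, and the part of this in the TRIM values was examined by scaling to nuclear protein-coding genes, which left 13 TRIM genes called higher and 8 called lower, in place of 14 and 6, while the shares of all tested genes went from 16.4% and 18.9% to 14.5% and 21.3%.

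Promoter sequences of 6 TRIM genes that rose are shown first, because each holds the letters of the element through which interferon acts. For TRIM69 the window is not at the start of the transcript that rose. Interferon-stimulated genes are bound by interferon regulatory factors at the interferon-stimulated response element, in which GAAA repeats are spaced by a pair of bases. The letters GAAA, any 2 bases and GAAA again (TTTC, any 2 bases and TTTC on the other strand) were searched in RefSeq promoter windows of build GRCh38.p14 that ran from 250 bases before to 50 bases after each annotated start. In the sequences below, written 5′ to 3′ in the direction of the gene, the capitals mark the match.
TRIM21: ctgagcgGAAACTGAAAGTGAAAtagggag
TRIM14: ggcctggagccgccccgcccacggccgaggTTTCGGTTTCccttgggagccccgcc
TRIM5: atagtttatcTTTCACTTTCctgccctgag
TRIM34: gccccaaaaaTTTCACTTTCatttctcagg
TRIM26: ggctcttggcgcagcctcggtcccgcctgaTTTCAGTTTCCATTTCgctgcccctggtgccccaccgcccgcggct
TRIM69: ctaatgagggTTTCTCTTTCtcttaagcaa

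The TRIM21 stretch lies at chr11:4393663-4393692 on the minus strand, and its capitals, from 18 to 33 bases after the start, hold 2 overlapping matches. TRIM14 is shown at chr9:98119223-98119278 on the minus strand, with the match 26 to 17 bases before the start. The stretch of TRIM5 lies at chr11:5685082-5685111 on the minus strand, 27 to 18 bases before the start in its capitals, and that of TRIM34 at chr11:5624901-5624930 on the plus strand, 90 to 81 bases before. TRIM5 and TRIM34 have the same letters within the match. For TRIM26, at chr6:30213555-30213630 on the minus strand, 2 overlapping matches lie 194 to 179 bases before the start. The TRIM69 stretch, at chr15:44736456-44736485 on the plus strand, lies 62 to 53 bases before the start of a coding transcript. That start is 7527 bases downstream of the start of the transcript that carried nearly all of the TRIM69 values. The coding transcripts annotated nearest to it, TRIM69-204 and TRIM69-208, were listed at 0 in all 6 samples.

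The same letters were found in 1255 of 35116 windows in the whole table (3.57%) and in 1195 of 27305 genes (4.38%). A window was given for 60 TRIM genes, and 10 of these (16.7%) held a match. Among the TRIM genes called higher it was 6 of the 10 with a window (60%), among those called lower 0 of 4, and among those tested and not called 3 of 17 (17.6%). Of all tested TRIM genes with a window, 9 of 31 (29%) held a match. Of the 10 called higher, 9 are on the list of interferon-inducible TRIM genes given below, and all 6 matches are among these 9. The 6 include TRIM69, whose match lies at a start without values. The 4 windows of genes called lower are too few to set against 4.38%. The promoters of the 4 genes called higher without a window are not analysed here. The 3 tested genes with a match that were not called were TRIM44, TRIM2 and TRIM16, which are shown for comparison.
TRIM44: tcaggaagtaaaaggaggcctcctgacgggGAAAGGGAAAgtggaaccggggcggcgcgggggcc
TRIM2: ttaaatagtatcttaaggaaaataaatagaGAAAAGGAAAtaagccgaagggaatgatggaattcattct
TRIM16: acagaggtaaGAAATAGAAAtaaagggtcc

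These lie at chr11:35662710-35662774 on the plus strand, chr4:153151916-153151985 on the plus strand and chr17:15683012-15683041 on the minus strand. The log2 fold changes of these 3 genes were 0.19 ± 0.07 for TRIM44, 0.24 ± 0.11 for TRIM2 and -0.18 ± 0.15 for TRIM16 (SE). Every OV-BRCA1 value of TRIM44 lay above every NC value, and TRIM44 was called higher with median-of-ratios scaling (0.22, limma, adjusted p = 0.0401) and with the length-weighted sum, a calculation added after the values were seen in which each transcript was weighted by its length (0.18, adjusted p = 0.0359). A match describes letters in a window and shows no binding.

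Of the 78 TRIM genes, 43 (55.1%) had 3 or more samples with FPKM of 0.5 or above and were tested, against 62.4% of all protein-coding genes. In 42 of the 43 the FPKM was at least 0.5 in all 6 samples, and TRIM73 fell short of it in 1 sample. A further 22 genes were listed at 0 in every sample, and the other 13 that were not tested had values of at most 0.553. The genes at 0 included TRIM43, TRIM48, TRIM49, TRIM51 and TRIM64, which belong to groups of duplicated genes, and on chromosome 11, where all of these but TRIM43 lie, 15 of 23 TRIM genes were not tested. TRIM49C, TRIM49D1 and TRIM49D2 had values of at most 0.0339, in OV-BRCA1 replicate 3 alone. The muscle ring finger genes TRIM54, TRIM55 and TRIM63, which mark striated muscle, were also below the filter. TRIM68, a ligase known from androgen receptor signalling, was listed at 0 in all 6 samples.

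The genes nearest above the filter, by their third-highest FPKM, were TRIM74 (0.934), TRIM73 (1.52) and TRIM36 (2.16), and those nearest below were TRIM31 (0.292), TRIM9 (0.198) and TRIM17 (0.148). TRIM31, the only gene of the interferon-inducible list that was not tested, had values of 0.226, 0.124 and 0.553 in the OV-BRCA1 samples and 0.337, 0.194 and 0.292 in the NC samples, so that the groups overlapped. TRIM31 is an intestinal ligase that acts on the mitochondrial adaptor MAVS.

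By mean FPKM over all 6 samples, 12 tested TRIM genes lay from 1 to 5, 14 from 5 to 10, 14 from 10 to 50 and 2 above 50, and 1 lay under 1. The median was 7.93, against 6.69 for all 16321 tested genes. The 5 genes with the highest means were TRIM28, TRIM29, TRIM26, TRIM25 and TRIM22. TRIM28, the corepressor that KRAB zinc finger proteins recruit to silence retroelements, had values of 159, 140 and 172 in the OV-BRCA1 samples and 167, 173 and 161 in the NC samples. Its groups overlapped, and it was not called at -0.09 ± 0.08 on the log2 scale (SE; limma, adjusted p = 0.408). TRIM28 was called lower with protein-coding transcripts alone (-0.28, adjusted p = 0.0324). In the length-weighted sum its values were 158, 144 and 150 against 180, 169 and 172, which did not overlap, and it was also called lower (-0.20, adjusted p = 0.0169). TRIM22 stood among the 5 only through the OV-BRCA1 samples.

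Between the groups, 14 of the 43 tested TRIM genes were called higher (32.6%, against 16.4% of all tested genes) and 6 were called lower (14.0%, against 18.9%), while 23 did not pass the test. There were 6 upregulated DEGs, where 2.89% of all tested genes were upregulated DEGs, and 0 downregulated DEGs, where 1.1% of all tested genes were. With a pseudocount of 0.1 there were 2 downregulated DEGs, TRIM45 (-1.13, limma, adjusted p = 0.00128) and TRIM73 (-1.05, adjusted p = 0.0420). With the pseudocount of 1 there was 1 with the most abundant transcript (TRIM45, -1.11, adjusted p = 0.00274), 1 without OV-BRCA1 replicate 2 (TRIM29, -1.06, adjusted p = 0.000843) and 1 with the length-weighted sum (TRIM52, -1.06, adjusted p = 0.0332). The 3 OV-BRCA1 values were all higher than the 3 NC values in 16 of the 43 tested TRIM genes, and this held for 23.4% of all tested genes. They were all lower in 9 of the 43, and this held for 27.4% of all tested genes. The median log2 fold change was 0.10 over the tested TRIM genes and -0.04 over all tested genes.

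**Figure D1:**
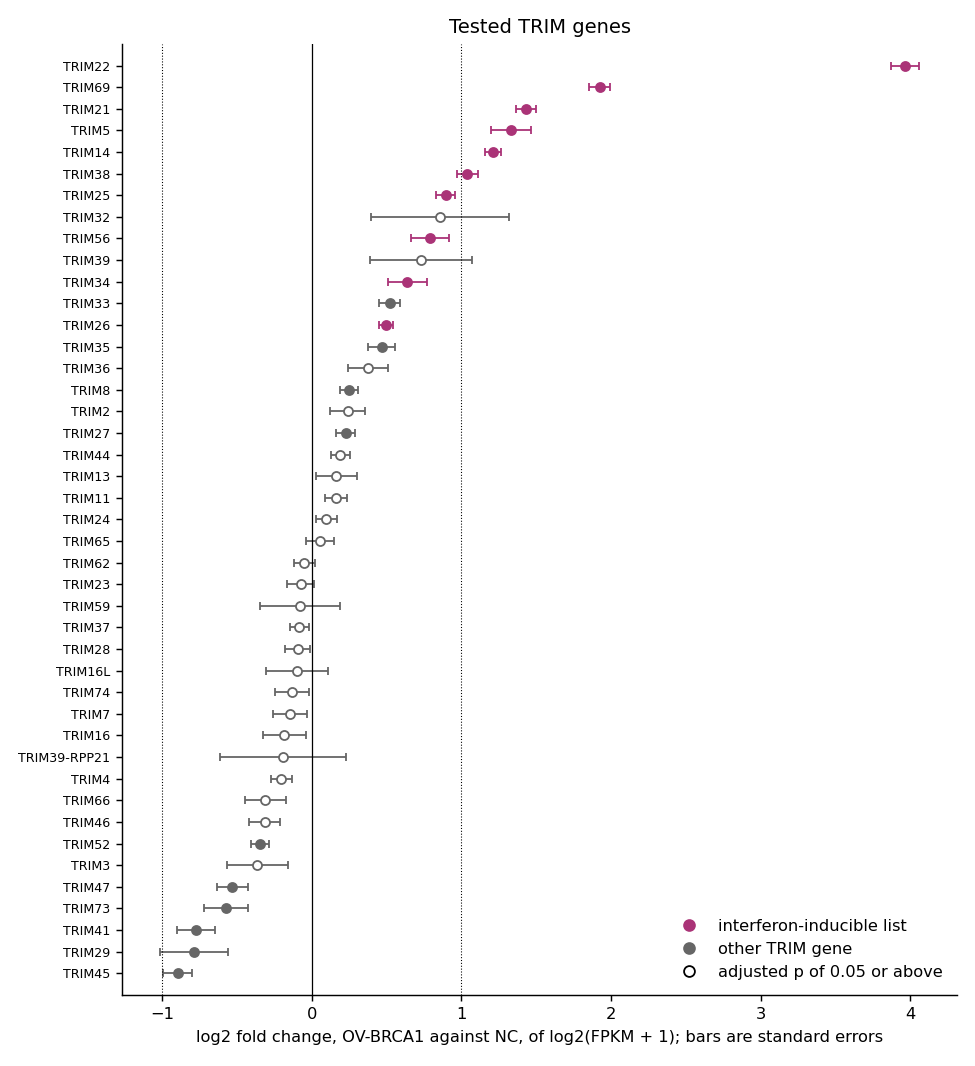
Log2 fold change of each of the 43 tested TRIM genes, OV-BRCA1 against NC, on the log2(FPKM + 1) scale, with bars of 1 standard error and 3 samples in each group. Filled points passed an adjusted p of 0.05, open points did not, purple points are on the interferon-inducible list, and dotted lines mark 1 and -1; TRIM22 stands alone at 3.96 and the lowest point is TRIM45 at -0.90.

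The called genes were set beside a list of 11 TRIM genes known to be induced by interferon. Of these, 10 were tested and all 10 were called higher, with log2 fold changes from 0.50 to 3.96 and a median of 1.13. The list came from general knowledge but was drawn up with earlier results of these data known, so that this count is not independent of them. All 6 upregulated DEGs were on this list. Without NC replicate 2 they numbered 7, with TRIM39, which is off the list, added (1.04, limma, adjusted p = 0.0453). The summed FPKM of the list was 231.2 to 239.5 in the OV-BRCA1 samples and 92.3 to 94.9 in the NC samples. Of the 67 TRIM genes off the list, 33 were tested, 4 were called higher (12.1%, against 16.4% of all tested genes), 6 were called lower (18.2%, against 18.9%) and 23 were not called, with a median of -0.08. Both shares lay near those of all tested genes. In 9 of the 10 tested genes on the list the adjusted p stayed below 0.05 under every alternative that gave a value, and the exception was TRIM26.

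**Figure D2:**
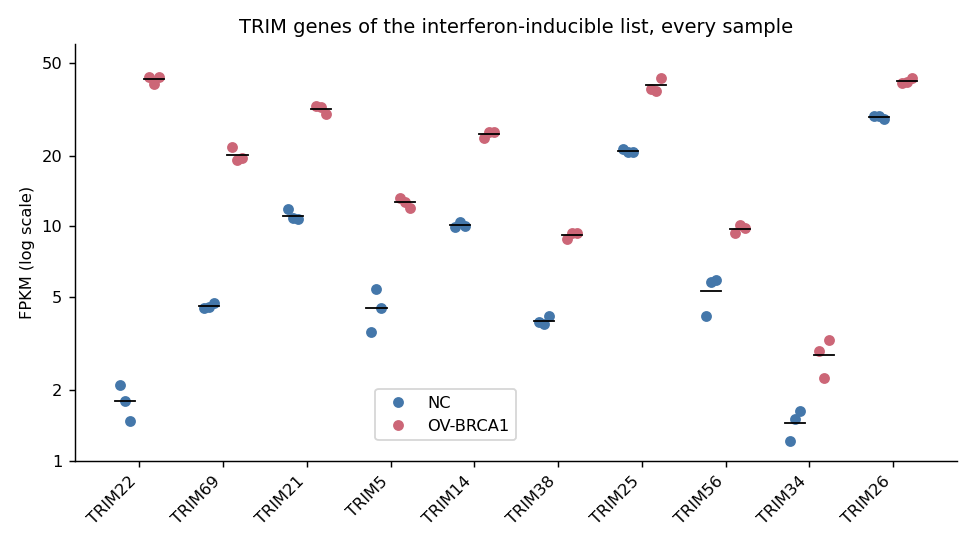
FPKM of the 10 tested TRIM genes of the interferon-inducible list in each sample, on a log axis, with NC samples in blue, OV-BRCA1 samples in red and a line at each group mean. The OV-BRCA1 samples lie above all NC samples in every gene, with the widest gap in TRIM22 (means of 42.4 and 1.79) and the narrowest in TRIM26 (41.8 and 29.3).

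TRIM22, an interferon-induced ligase that restricts human immunodeficiency virus and influenza virus, changed more than any other TRIM gene. It had values of 43.3, 40.6 and 43.3 in the OV-BRCA1 samples and 2.11, 1.79 and 1.48 in the NC samples. The means were 42.4 ± 1.56 and 1.79 ± 0.314 (SD, n = 3), a ratio of 23.7, and the log2 fold change was 3.96 ± 0.10 (SE; limma, adjusted p = 3.88e-06). The gene lies at chr11:5689689-5737089 in hg38, and the olfactory receptor gene OR56B1, which shares 642 exonic bases with it on the same strand, was listed at 0 in all samples. Its promoter is not analysed here.

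Other genes of the list encode retroviral restriction factors and virus sensors. TRIM21, the cytosolic antibody receptor that targets antibody-coated virus particles for degradation, had values of 32.8, 32.3 and 30.1 against 11.8, 10.8 and 10.7 and was higher by 1.43 ± 0.07 (SE; limma, adjusted p = 3.43e-05). TRIM5, which binds the capsid of incoming retroviruses, had values of 13.3, 12.7 and 11.97 against 3.55, 5.40 and 4.47 and was higher by 1.33 ± 0.13 (SE; limma, adjusted p = 0.000756). In both genes the lowest OV-BRCA1 sample was more than double the highest NC sample. TRIM34, a close relative of TRIM5 that also binds capsids, was far lower in level, with values of 2.93, 2.26 and 3.29 against 1.21, 1.503 and 1.62 and a log2 fold change of 0.64 ± 0.13 (SE; limma, adjusted p = 0.0121). Its readthrough gene TRIM6-TRIM34, which shares 2233 exonic bases with it on the same strand, was listed at 0 in all samples.

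TRIM69, known to interfere with vesicular stomatitis virus, had values of 21.8, 19.3 and 19.6 in the OV-BRCA1 samples and 4.49, 4.55 and 4.73 in the NC samples, and was higher by 1.92 ± 0.07 (SE; limma, adjusted p = 1.48e-05). The rise was carried by RNA that is not annotated as coding. The processed transcript TRIM69-207 (3190 bases, chr15:44729001-44734000) had values of 21.0, 19.1 and 18.5 against 4.37, 4.50 and 4.43. The 7 coding transcripts together had 0.178, 0.191 and 0.0993 against 0.0945, 0 and 0, so that coding transcripts held 0.77% of the TRIM69 FPKM in OV-BRCA1 and 0.69% in NC samples. TRIM69 therefore could not be tested with protein-coding transcripts alone, and 5 genes then remained of the 6 that were DEGs in the test of gene sums, of which 4 were DEGs.

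The other 5 genes of the list are known from innate immune signalling. TRIM14, which lacks the RING domain and serves as an adaptor at mitochondria, had values of 23.9, 25.3 and 25.2 against 9.94, 10.4 and 10.1 and was higher by 1.21 ± 0.06 (SE; limma, adjusted p = 3.62e-05). It shares 422 exonic bases with NANS on the opposite strand, and NANS was itself higher by 0.54. TRIM38, a regulator of innate signalling, had values of 8.84, 9.34 and 9.38 against 3.89, 3.82 and 4.16 and was higher by 1.04 ± 0.07 (SE; limma, adjusted p = 0.000161). TRIM14 and TRIM38 were the last of the 6 DEGs, after TRIM22, TRIM69, TRIM21 and TRIM5.

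TRIM25, the ligase best known for attaching ubiquitin to RIG-I, had values of 38.7, 37.9 and 43.2 against 21.3, 20.9 and 20.7 and was higher by 0.89 ± 0.06 (SE; limma, adjusted p = 0.000211). Its neighbour C17orf67, which shares 132 exonic bases with it on the same strand, was itself higher by 0.82. TRIM56, an antiviral ligase linked to cGAS and STING, had values of 9.33, 10.1 and 9.86 against 4.13, 5.81 and 5.91 and was higher by 0.79 ± 0.13 (SE; limma, adjusted p = 0.00507). TRIM26, which acts on IRF3 and on the kinase complex above it, had values of 40.9, 41.4 and 43.1 against 29.5, 29.7 and 28.6 and was higher by 0.50 ± 0.05 (SE; limma, adjusted p = 0.000711). These 3 genes rose by less than the DEG threshold, although none of their OV-BRCA1 and NC samples overlapped. When the most abundant transcript stood for the gene, TRIM26 had a log2 fold change of 0.59 ± 0.32 (SE) and was not called (limma, adjusted p = 0.264).

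Off the interferon-inducible list, 4 genes were called higher. TRIM33, a nuclear ligase of the PHD finger and bromodomain subfamily that acts on SMAD4, had values of 13.0, 14.7 and 13.2 against 9.04, 8.98 and 9.53 and was higher by 0.52 ± 0.07 (SE; limma, adjusted p = 0.00259). Neither of the other genes counted in its subfamily was called, TRIM28 at -0.09 and the nuclear receptor cofactor TRIM24 at 0.10 ± 0.07 (SE; limma, adjusted p = 0.329), and the difference between them and TRIM33 was not tested. TRIM66, a relative of these genes that was counted with those without a RING domain, was not called at -0.31 (adjusted p = 0.132). It was called lower with the most abundant transcript (-0.39, adjusted p = 0.0304), with the length-weighted sum (-0.51, adjusted p = 0.00213) and without OV-BRCA1 replicate 1 (-0.44, adjusted p = 0.0426). TRIM35, TRIM8 and TRIM27 are named after their values were seen. TRIM35 was higher by 0.47 (limma, adjusted p = 0.00947), TRIM8, a regulator of cytokine signalling, by 0.25 (adjusted p = 0.0212) and TRIM27, first known as a fusion partner of RET, by 0.23 (adjusted p = 0.0341). TRIM8 lost its call without OV-BRCA1 replicate 1 (adjusted p = 0.0592), OV-BRCA1 replicate 2 (0.0630) or NC replicate 1 (0.0613). TRIM27 lost it without any sample other than OV-BRCA1 replicate 1, with adjusted p-values of 0.0708 to 0.0908. Coding transcripts held 25.2% of the TRIM27 FPKM in OV-BRCA1 and 25.6% in NC samples, and with these alone the log2 fold change was 0.20 ± 0.15 (SE; limma, adjusted p = 0.371). TRIM27 was also not called with the most abundant transcript (0.22, adjusted p = 0.0799) or with scaling to nuclear protein-coding genes (0.19, adjusted p = 0.0785).

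Of the 6 TRIM genes that were called lower, none was on the interferon-inducible list. TRIM45, which carries a filamin domain and represses MAP kinase signalling, had values of 1.99, 2.16 and 2.61 in the OV-BRCA1 samples and 4.81, 5.04 and 5.26 in the NC samples. Its log2 fold change was -0.90 ± 0.10 (SE; limma, adjusted p = 0.0011). TRIM41, which binds protein kinase C, had values of 6.53, 4.82 and 5.11 against 10.2, 8.93 and 10.98 and a log2 fold change of -0.77 ± 0.13 (SE; limma, adjusted p = 0.00498). In both genes every OV-BRCA1 sample lay below every NC sample. The TRIM41 call was lost with protein-coding transcripts alone, at -0.38 ± 0.20 (SE; limma, adjusted p = 0.214), and with the most abundant transcript, at -1.37 ± 0.50 (adjusted p = 0.120).

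TRIM47 had values of 10.97, 8.84 and 9.11 against 13.3, 15.8 and 13.9 and a log2 fold change of -0.53 ± 0.10 (SE; limma, adjusted p = 0.00994). Coding transcripts held 49.4% of the TRIM47 FPKM in OV-BRCA1 and 67.3% in NC samples, and the log2 fold change was -0.91 with these alone (adjusted p = 0.0418) and -0.96 with the most abundant transcript (adjusted p = 0.0249). TRIM52, which has an enlarged RING domain, had values of 12.6, 12.2 and 13.1 against 15.9, 16.9 and 16.1 and a log2 fold change of -0.35 ± 0.06 (SE; limma, adjusted p = 0.00589). For TRIM47 and TRIM52 the groups did not overlap. The coding transcripts of TRIM52 had 6.65, 0.165 and 0.0941 against 7.94, 7.67 and 7.77, so that OV-BRCA1 replicate 1 stood with the NC samples. With these alone the fall was larger and the spread wider, at -2.04 ± 0.78 (SE; limma, adjusted p = 0.103), and with the most abundant transcript the log2 fold change was also -2.04 (adjusted p = 0.141). In the length-weighted sum the values were 15.1, 6.42 and 6.86 against 19.2, 20.2 and 18.9 and the log2 fold change was -1.06 (adjusted p = 0.0332). TRIM52 shares 1868 exonic bases with CTC-338M12.4 on the opposite strand, which was not called at -0.29.

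TRIM73 lay close to the filter, with values of 0.412, 0.815 and 1.04 against 1.57, 1.52 and 1.63 and a log2 fold change of -0.57 ± 0.15 (SE; limma, adjusted p = 0.0258). It belongs with TRIM74 to a duplicated region, and reads shared between such copies may have been split. STAG3L1 and NSUN5P1, which share exonic bases with TRIM73 on the same strand, were also lower, at -0.60 and -0.65. The TRIM73 call was lost without OV-BRCA1 replicate 2 and without any of the NC replicates, with adjusted p-values of 0.0565 to 0.0729. It was also lost with protein-coding transcripts alone, at -0.52 ± 0.17 (SE; limma, adjusted p = 0.0653), and with the most abundant transcript, at -0.44 ± 0.19 (adjusted p = 0.173).

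TRIM29, which lacks a RING domain and is a marker of basal squamous epithelium, was the second most abundant TRIM gene. Its values were 58.3, 101 and 55.5 in the OV-BRCA1 samples and 116, 116 and 128 in the NC samples, and its log2 fold change was -0.79 ± 0.22 (SE; limma, adjusted p = 0.0374). OV-BRCA1 replicate 2 stood close to the NC samples and the other two well below them. In that sample 84.5 of the 101 FPKM were assigned to the processed transcript TRIM29-204 (1632 bases), which had 2.75 and 0 in the other OV-BRCA1 samples, while the coding TRIM29-201 (3328 bases) had 10.7 against 48.6 and 50.2. In the length-weighted sum the values were 67.1, 70.0 and 66.9 against 123.5, 126.5 and 120.1. On that scale the log2 fold change was -0.85 (adjusted p = 3.37e-05). With protein-coding transcripts alone it was -1.29 ± 0.57 (SE; limma, adjusted p = 0.144) and with the most abundant transcript -1.33 ± 0.62 (adjusted p = 0.200), so that neither was called. In the sum without weights the call was lost without any sample other than OV-BRCA1 replicate 2, with adjusted p-values of 0.0818 to 0.105, and without that replicate TRIM29 passed the DEG threshold.

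**Figure D3:**
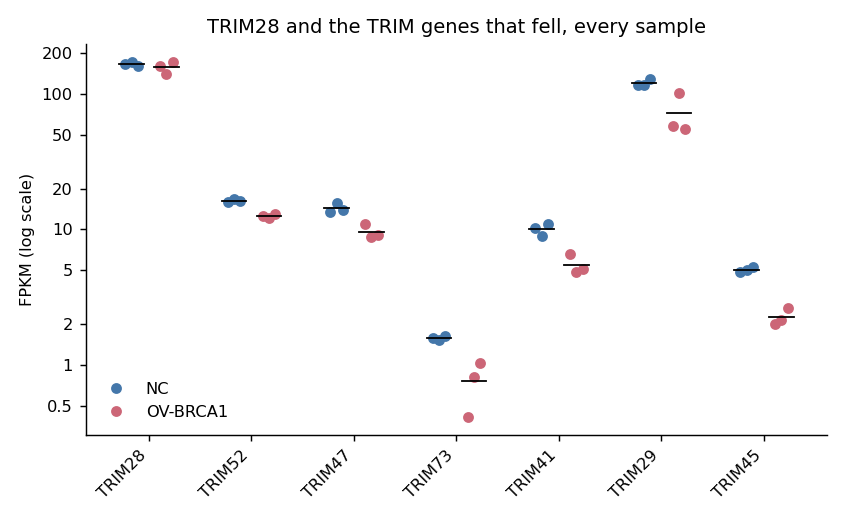
FPKM of TRIM28 and of the 6 TRIM genes called lower in each sample, on a log axis, with NC samples in blue, OV-BRCA1 samples in red and a line at each group mean. In the 6 called genes the OV-BRCA1 samples lie below the NC samples, TRIM29 has 1 OV-BRCA1 sample at 101 near the NC samples, and the TRIM28 groups overlap on this scale of unweighted sums.

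Among the 23 tested TRIM genes that were not called, all off the list, log2 fold changes ran from -0.36 to 0.86. The highest of them had the widest spread. TRIM32, a ligase with NHL repeats that is known from limb-girdle muscular dystrophy, had values of 8.13, 8.59 and 8.99 against 8.15, 1.44 and 5.59, and NC replicate 2 stood far below the rest (0.86 ± 0.46, SE; limma, adjusted p = 0.197). TRIM39, with values of 3.22, 5.77 and 5.59 against 1.27, 4.34 and 2.40 (adjusted p = 0.145), was called higher without NC replicate 2 (1.04, adjusted p = 0.0453) and shares 1246 exonic bases with the readthrough gene TRIM39-RPP21. The sum of both was 7.17 ± 1.97 in OV-BRCA1 and 5.88 ± 1.10 in NC samples (SD, n = 3), a difference within the spread of the samples. TRIM4, TRIM46 and TRIM36 were also not called, at -0.20, -0.31 and 0.38 (limma, adjusted p = 0.0722, 0.0528 and 0.0698), and each was called in the same direction under at least 1 alternative.

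The subfamilies, which are defined by the domain after the coiled coil, were represented unequally. Genes without a RING domain were counted apart whatever follows their coiled coil, so that TRIM14, TRIM16 and TRIM16L, which also carry PRY-SPRY sequence, are not in the PRY-SPRY counts and TRIM66 is not among the PHD finger and bromodomain genes. The PRY-SPRY subfamily, whose C-terminal domain recognises viral capsids, antibodies and signalling proteins, had 41 genes, of which 18 were tested, 10 were called higher (55.6%, against 16.4% of all tested genes) and 2 lower (11.1%, against 18.9%). Of its 10 tested genes off the interferon-inducible list, 2 were called higher and 2 lower (20% each), close to the shares of all tested genes. The 6 genes without a RING domain were all tested, with TRIM14 called higher and TRIM29 called lower. Of the 5 tested genes without a C-terminal domain, 2 were called higher (TRIM8 and TRIM56) and 2 lower (TRIM52 and TRIM73). Of the 3 tested genes with NHL repeats and the 2 tested genes with a COS box, fibronectin and SPRY domain, none was called, with log2 fold changes of -0.36 to 0.86 and -0.31 to 0.38.

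Several of the called genes lie side by side in the genome, in places that hold too few TRIM genes to set against the 16.4% of all tested genes called higher and the 18.9% called lower. On the short arm of chromosome 11, between 4384897 and 5938619 in hg38, lie 7 TRIM genes, of which 4 were tested and all 4 were called higher (TRIM21, TRIM34, TRIM5 and TRIM22). This stretch was set to end with TRIM5. Farther along the same arm, TRIM3 (from 6448613, -0.36), TRIM66 (from 8612037, -0.31) and TRIM44 (from 35662805, 0.19) were tested and not called. On the short arm of chromosome 6, between 28903002 and 30346854, 4 of 8 TRIM genes were tested and 2 of them, TRIM27 and TRIM26, were called higher. On chromosome 5, between 181193924 and 181261139, all 3 TRIM genes were tested and the neighbours TRIM41 and TRIM52 were called lower, while TRIM7 was not called (-0.15, adjusted p = 0.354). On chromosome 17, TRIM47 was called lower and its neighbour TRIM65 was not called (0.06, adjusted p = 0.673).

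The transcripts behind a gene sum differed between genes. All FPKM of TRIM21, TRIM38 and TRIM56 came from protein-coding transcripts. In TRIM22, coding transcripts held 73.3% of the FPKM in OV-BRCA1 and 65.8% in NC samples, and the coding transcript TRIM22-201 had values of 32.3, 30.3 and 28.8 against 1.30, 1.17 and 1.07. In TRIM5 the coding share was 35.5% in OV-BRCA1 and 54.3% in NC samples. The TRIM5 transcript with the highest mean was TRIM5-206, annotated for nonsense-mediated decay, with 3.93, 4.40 and 2.59 against 0.309, 0.632 and 0.567. With coding transcripts alone TRIM5 was higher by 0.70 (limma, adjusted p = 0.0286), below the DEG threshold. TRIM25 also had a lower coding share in the OV-BRCA1 group, 64.2% against 77.8%, and its coding transcripts alone were higher by 0.62 (adjusted p = 0.00059). The differences in share were not tested.

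**Figure D4:**
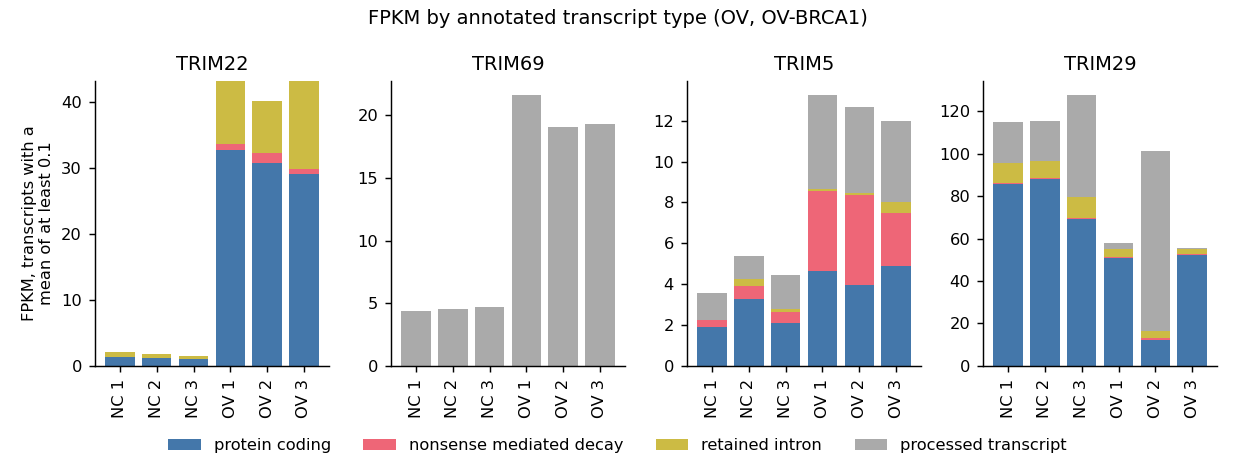
Stacked FPKM by annotated transcript type for TRIM22, TRIM69, TRIM5 and TRIM29 in the 3 NC and 3 OV-BRCA1 samples (OV), over transcripts with a mean FPKM of at least 0.1. TRIM69 consists of processed transcript in all samples, and OV-BRCA1 replicate 2 of TRIM29 holds 84.5 FPKM of one processed transcript.

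The TRIM genes were set beside 35 interferon-stimulated genes that do not belong to the family, which were measured in the same 6 samples. All 35 were tested, of which EPSTI1 and RTP4 reached the filter through the OV-BRCA1 samples alone and are left aside. The other 33 were all called higher (against 16.4% of all tested genes), 31 of them as DEGs (against 2.89%). Their log2 fold changes ran from 0.72 to 4.36, with a median of 2.34. This list too was drawn up with earlier results of these data known. Of the 14 TRIM genes called higher, 8 reached at least the lowest value of these 33 genes, 2 (TRIM22 and TRIM69) their lower quartile of 1.68 and 1 (TRIM22) their median. The reference genes above TRIM22 were 3 in number, with RSAD2, an antiviral enzyme of the endoplasmic reticulum, at the top (4.36).

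Of 4 TRIM proteins that carry another symbol, 3 were tested and all 3 were called higher, too few to set against the 16.4% of all tested genes. PML, the organiser of nuclear bodies, which is itself interferon-inducible, had values of 54.7, 52.1 and 52.5 against 25.6, 25.3 and 28.1 and was higher by 0.99 ± 0.06 (SE; limma, adjusted p = 0.000107). The midline microtubule ligases MID2 and MID1 were higher by 0.49 (adjusted p = 0.00959) and 0.52 (adjusted p = 0.0341), and MEFV was below the filter. Of the TRIM-like genes, RNF135, which like TRIM25 acts on RIG-I, was not called at -0.09 (adjusted p = 0.512), and TRIML1 and TRIML2 were not tested.

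Of 14 genes of RIG-I and cGAS signalling on which TRIM ligases act, 4 were called higher (28.6%, against 16.4% of all tested genes), 1 lower (7.14%, against 18.9%) and 9 were not called, with a median log2 fold change of 0.07. MB21D1, which encodes cGAS, was not matched by symbol and is not among the 14. The RNA sensors were among those that rose. DDX58, which encodes RIG-I, had values of 140, 140 and 146 against 18.2, 17.4 and 18.3 and was higher by 2.91 ± 0.05 (SE; limma, adjusted p = 1.24e-06), IFIH1, which encodes MDA5, by 2.57, the antiviral zinc finger gene ZC3HAV1 by 1.21 and TMEM173, which encodes STING, by 0.51. MAVS, the mitochondrial adaptor below RIG-I, was lower, with values of 5.06, 5.68 and 5.39 against 7.74, 7.42 and 7.33 and a log2 fold change of -0.41 ± 0.07 (SE; limma, adjusted p = 0.00633). The kinase gene TBK1 and the transcription factor gene IRF3 were not called.

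Among 15 E2 conjugating enzymes, the partners from which E3 ligases take ubiquitin, 6 were called higher (40%, against 16.4% of all tested genes) and 0 lower (against 18.9%), with a median log2 fold change of 0.18. UBE2L6, the E2 enzyme for the ubiquitin-like protein ISG15, stood apart with values of 214, 210 and 211 against 48.1, 52.7 and 54.2 and a log2 fold change of 2.02 ± 0.06 (SE; limma, adjusted p = 5.22e-06). The next by adjusted p were UBE2E1 (0.26), UBE2N (0.30), which builds the non-degradative chains used in RIG-I signalling, and UBE2L3 (0.25).

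**Figure D5:**
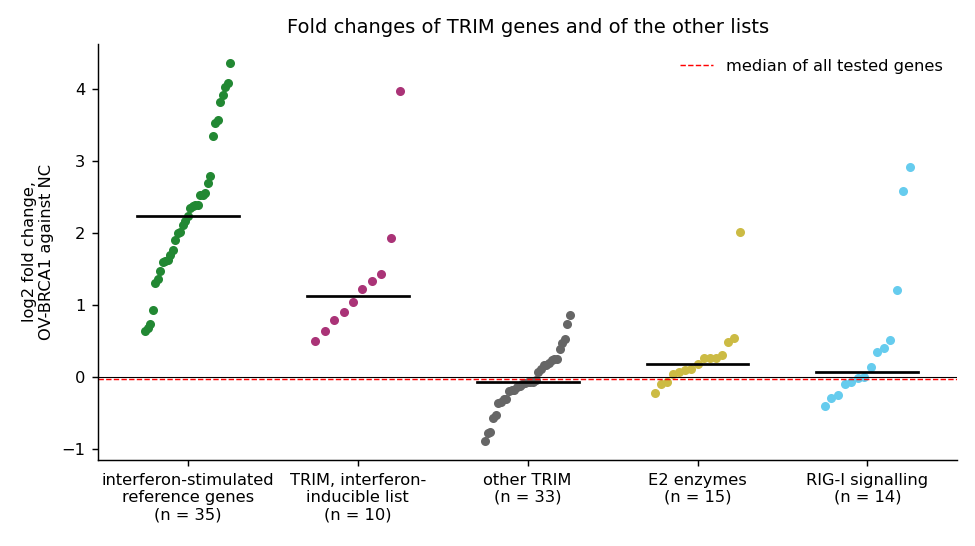
Log2 fold change, OV-BRCA1 against NC, of each tested gene in 5 lists, where points are genes in rising order, black lines are list medians and the red dashed line is the median of all tested genes (-0.04). The medians are 2.23 for the 35 interferon-stimulated reference genes, EPSTI1 and RTP4 included, 1.13 for the TRIM genes of the interferon-inducible list, -0.08 for the other TRIM genes, 0.18 for the E2 enzymes and 0.07 for the RIG-I and cGAS signalling genes.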

How the data were processed

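The authors removed reads with adapters, unknown bases or low quality and deposited FPKM values per transcript. The labels' processing notes name FastQC, HISAT2 and hg38, whereas the quantification tool, the annotation and the use of strand are not given in the sources used here. The matrix held 199167 transcripts of 58174 genes, of which 198868 transcripts are in GENCODE release 29, and 338 genes had no name there. FPKM were summed per gene, and 16321 genes with 3 or more samples at FPKM 0.5 or above were tested with limma 3.58.1 (R 4.3.3; moderated test with trend, not robust) on log2(FPKM + 1), with Benjamini-Hochberg adjustment over all of them. The authors tested counts with DESeq, which FPKM do not allow. Whole reads were not recovered from the low values, so that the matrix gives depth only as a rough estimate of 14.0 to 19.6 M fragments per sample. The read totals listed by the study are not repeated here, and precision rests on the spread between 3 samples. An exact permutation test of 3 against 3 samples cannot go below p = 0.1 and was not used. The script was tested on simulated data. The members and all lists (interferon-inducible TRIM genes, subfamilies and other pathway genes, from general knowledge) and the motif were chosen with earlier results of these data known. Named genes are the interferon list, DEGs, the largest rises and falls, the 5 most abundant members, those nearest the filter and up to 3 further genes per other list. TRIM35, TRIM8, TRIM27, TRIM32, TRIM39, TRIM39-RPP21, TRIM68, TRIM24, TRIM7, TRIM65, TRIM44, TRIM2, TRIM3, TRIM16, TRIM66, TRIM4, TRIM46, the genes at 0, the overlapping genes, RSAD2, RTP4, EPSTI1, TBK1 and IRF3 were named after their values were seen. MB21D1 was not matched by symbol and is not analysed here. Alternatives were 15 planned and 1 added after the values were seen. Python 3.11.15 with pandas 2.3.3 and matplotlib 3.10.9 was used.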

Additional observations from a re-analysis of the deposited data

How the results depend on the processing

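Over 16 alternatives (another pseudocount, no or a stricter filter, 2 scalings, the replicate block, no trend, protein-coding transcripts or the most abundant transcript alone, each sample left out, and the added length-weighted sum), 299 of 335 values of 21 named TRIM genes kept their direction and their side of the threshold, none changed direction, and 13 genes did so throughout. TRIM69 could not be tested with protein-coding transcripts alone. The number of TRIM genes called higher was 12 to 16 and the number called lower 3 to 9, with 16 and 9 under the length-weighted sum (37.2% and 20.9% of those tested, against 19.0% and 21.9% of all tested genes). There were 3 called lower under protein-coding transcripts and 3 under the most abundant transcript, where the whole table had 2105 genes called higher and 1589 lower of 11862 tested (17.7% and 13.4%), and 1685 and 1606 of 15614 (10.8% and 10.3%), in place of 2674 and 3090 of 16321 (16.4% and 18.9%). TRIM DEGs that rose numbered 6 throughout, other than 4 with protein-coding transcripts and 7 without NC replicate 2. TRIM DEGs that fell numbered 2 with a pseudocount of 0.1, 1 with the most abundant transcript and 1 with the length-weighted sum, in place of 0. With each sample left out in turn they numbered 0 to 1, and the TRIM genes off the list called higher numbered 2 to 4, the lowest in the absence of OV-BRCA1 replicate 2 or NC replicate 1. The cause was not tested. TRIM28 passed the threshold with protein-coding transcripts (-0.28, adjusted p = 0.0324) and with the length-weighted sum (-0.20, adjusted p = 0.0169). Equal replicate numbers did not pair the samples (correlations of deviations of -0.02, 0.02 and 0.01), and with the replicate block 13 TRIM genes were called higher and 5 lower (30.2% and 11.6%, against 13.2% and 14.9% of all tested genes), with TRIM8, TRIM27 and TRIM29 lost and TRIM39 gained (0.73, adjusted p = 0.0353). Without a filter, TRIM29 (adjusted p = 0.0958) and TRIM73 (0.0749) were not called. Low FPKM limit what can be said of the 35 TRIM genes that were not tested, and reads of overlapping genes cannot be told apart without strand.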
